A study of Mus musculus with 8 samples.

Results

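Genes of the primary cilium and of intraflagellar transport were followed in mouse medulloblastomas and in the cerebellar cells from which such tumours arise. The set held 53 gene symbols, chosen as a list of cilium genes, and 43 of them were measured among the 14351 genes that had an array row of their own. The other 10 (Kif7, Kif17, Gpr161, Bbs1, Bbs10, Arl6, Arl13b, Dync2h1, Tctn1 and Mks1) had no row with a single gene symbol and were not analysed here. Where several rows carry 1 symbol, the row with the highest mean stands for the gene. Each of the 43 had 1 such row.

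RNA was measured on Affymetrix whole-transcript arrays, 1 array for each of 8 samples. There were 4 medulloblastomas from adult mice that carried RosaGli1-FLAG c/c, Math1-Cre and Ptc+/- together. Granule neuron precursors (GNPs), the dividing cells that give rise to cerebellar granule neurons, were isolated at postnatal day 8 from the cerebella of mice with RosaGli1-FLAG and Math1-Cre (Gli1-FLAG GNPs, 2 samples) and from Ptc+/- mice (Ptc+/- GNPs, 2 samples). Math1-Cre acts in cells that have expressed Math1, a transcription factor of the granule lineage, and switches on a FLAG-tagged Gli1, so the tumours and the Gli1-FLAG GNPs share the tagged gene, and the tumours and the Ptc+/- GNPs share the targeted Ptch1 allele. No group was free of an engineered allele. Tumours differ from both GNP groups in age, in preparation and in genotype along with disease, and these cannot be told apart. The labels call the samples biological replicates but do not tie them to animals, and the p-values therefore cover only sample-to-sample spread, which may be technical.

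The primary cilium is a single antenna on most vertebrate cells, built from a basal body, gated by a transition zone and maintained by trains of transport proteins that carry cargo outward with IFT-B and kinesin-2 and inward with IFT-A and dynein-2. The BBSome, a further protein complex, moves membrane proteins in and out of the cilium. Hedgehog signalling in vertebrates runs through this organelle: the receptor Ptch1 leaves it and Smo enters it on ligand binding, and Gli proteins pass through it to be processed. Granule neuron precursors carry such cilia. In mice, medulloblastoma driven by active Smo needs cilia, whereas loss of cilia has been seen to promote tumours driven by active Gli2.

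As a check of the engineered genes, Gli1 stood at a log2 intensity of 10.58, 10.42, 10.52 and 10.90 in tumours, 10.08 and 10.19 in Gli1-FLAG GNPs, and at 9.24 and 9.38 in Ptc+/- GNPs. Ptch1 averaged 10.13 ± 0.37 in tumours (SD, n = 4), 10.08 ± 0.05 in Gli1-FLAG GNPs and 9.98 ± 0.01 in Ptc+/- GNPs (SD, n = 2 each). Gli1 was highest in tumours and lowest in Ptc+/- GNPs. Whether either probe set covers the altered part of its gene is not known here, so neither checks the alleles fully. All levels are log2(intensity + 1) after quantile normalization. Median intensity per array before that step ran from 134 to 310.0 in tumours, from 109 to 116 in Gli1-FLAG GNPs and from 125 to 283 in Ptc+/- GNPs. On every array each of the 43 cilium genes lay between the 28.7th and the 97.7th percentile of all rows.

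Cilium genes were more often lower than higher in the tumours. Against the mean of both GNP groups, 14 of 43 fell and 2 rose, at an adjusted p under 0.05 in limma's fit, where 12.6% of all 16317 rows fell and 10.7% rose. Against Ptc+/- GNPs 10 fell and 1 rose (8.92% and 7.54% of all rows), and against Gli1-FLAG GNPs 7 fell and 1 rose (5.63% and 4.65% of all rows). These 3 comparisons share the tumour arrays, and the first averages the other two. The median log2 fold change of the 43 genes was -0.29 against both GNP groups, -0.29 against Ptc+/- GNPs and -0.25 against Gli1-FLAG GNPs, with medians of 0.01, 0.01 and 0 over all rows. In bulk RNA, fewer cells of a type and less RNA per cell cannot be told apart. All 4 tumours lay below all 4 GNP samples for 16 of the 43 genes (16.5% of all rows) and above them for 3 (14.7%). Against Ptc+/- GNPs alone they lay wholly below for 20 genes (22.1% of all rows) and above for 4 (19.9%), and against Gli1-FLAG GNPs alone below for 16 (21.4%) and above for 8 (19.6%). In either direction 11 genes were called against Ptc+/- GNPs (16.5% of all rows), 8 against Gli1-FLAG GNPs (10.3%) and 16 against both groups (23.4%). At an unadjusted p under 0.05 against both groups, 19 were lower (20.0% of all rows) and 3 higher (18.4%). In all, 16 genes were called in at least 1 comparison, the same 16 as against both groups. Of these, 7 (Ift81, Ift88, Stk36, Bbs2, Bbs7, Cspp1 and the rising Nphp4) were called in both comparisons with a single GNP group. The share of all rows called in both was not counted, and shared tumour arrays make such overlap more likely. Ift52, Ift57, Kif3b and Evc2 were called only against the mean of both groups.

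Counts leaned on the GNP arrays, of which each group has 2. Leaving out a GNP array or medulloblastoma 1 also lowered the share of all rows called in the comparisons with tumours. Whether cilium genes lost more of their calls than other rows was not tested. Against Ptc+/- GNPs 0 cilium genes were called without Ptc+/- GNP 1 (0.784% of all rows) and 1 without Ptc+/- GNP 2 (2.82%). There 5 were called without Gli1-FLAG GNP 1 (7.54%) and 5 without Gli1-FLAG GNP 2 (7.52%). Against Gli1-FLAG GNPs 0 were called without Gli1-FLAG GNP 1 (0.38% of all rows) and 0 without Gli1-FLAG GNP 2 (0.435%). There 3 were called without Ptc+/- GNP 1 (5.14%), 3 without Ptc+/- GNP 2 (5.03%) and 2 without medulloblastoma 1 (4.92%). Against both groups, 7 were called without Gli1-FLAG GNP 1 (7.97% of all rows) and 7 without Gli1-FLAG GNP 2 (10.1%). Without Ptc+/- GNP 1 it was 7 (10.9%), and without Ptc+/- GNP 2 it was 9 (14.1%). In that comparison 6 genes (Ift81, Ift88, Stk36, Bbs2, Tmem67 and Cspp1) held their call on leaving out each array in turn. For this reason the adjusted p-values below are those of the comparison with both GNP groups. The counts by role below belong to it too unless another is named, and there 12.6% of all rows fell and 10.7% rose.

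Medulloblastomas 1 and 2 stood apart in markers of Purkinje cells and interneurons. In those of postmitotic granule neurons medulloblastoma 1 lay within the range of Ptc+/- GNPs. Summed intensity of 8 Purkinje cell and interneuron markers was 2214, 6917, 336 and 628 in the 4 tumours, 742 to 802 in Gli1-FLAG GNPs and 667 to 696 in Ptc+/- GNPs, and that of 8 markers of postmitotic granule neurons was 5107, 11722, 6408 and 3100 in tumours, 5890 to 5946 in Gli1-FLAG GNPs and 5025 to 5818 in Ptc+/- GNPs. Medulloblastoma 2 was highest in both and was also the lowest tumour for 21 of the 43 cilium genes (29.5% of all rows). Medulloblastoma 1 was the lowest tumour for 4 (18.3%) and the highest for 13 (20.3%). With medulloblastomas 1 and 2 left out, a setting chosen after seeing the data, 6 cilium genes fell and 0 rose against both GNP groups (13.5% of all rows called), 5 fell and 0 rose against Ptc+/- GNPs (8.57%), and 1 fell and 0 rose against Gli1-FLAG GNPs (4.13%). Ift88, Stk36, Bbs2, Tmem67 and Cspp1 held their call against both groups there and Ift74 gained one, while the other 11 calls were lost with adjusted p from 0.0504 (Evc2) to 0.114 (Ift57). No called gene changed sign. The part of these cells in the values of the cilium genes was not tested.

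**Figure D1:**
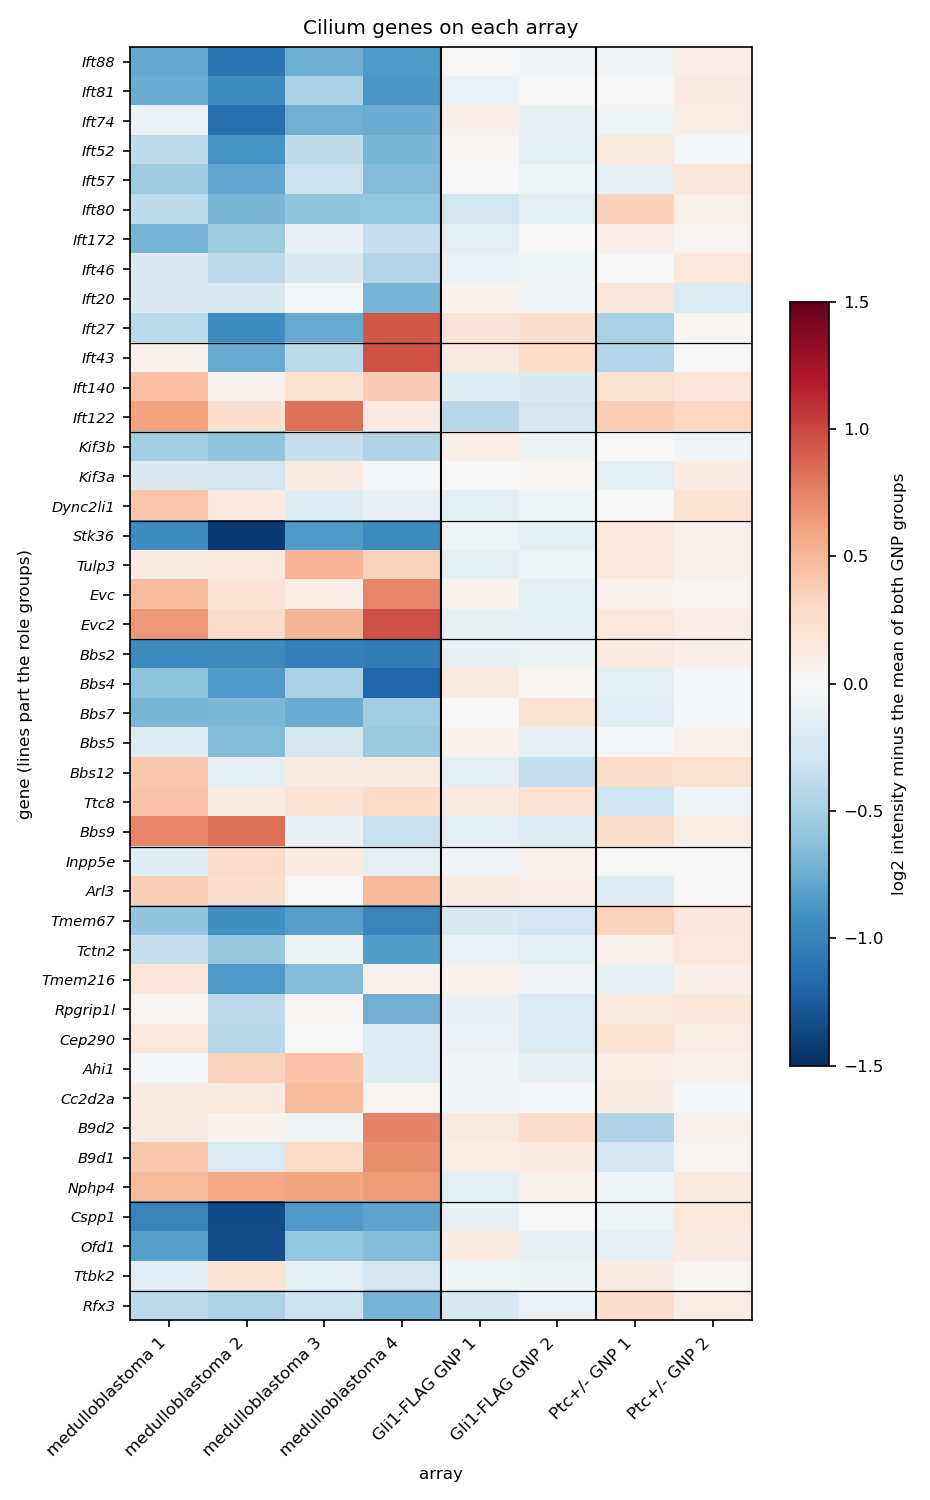
Each row is a cilium gene, each column an array, and the colour is log2 intensity minus the mean of both GNP groups, from blue (lower) to red (higher). Stk36, Bbs2, Ift88, Cspp1 and Tmem67 are blue on all 4 tumour arrays, while Nphp4, Evc and Evc2 are red on all 4.

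Rfx3 encodes a transcription factor that binds the X-box, a DNA motif in the promoters of many cilium genes. Its log2 intensity was 9.07, 8.98, 9.14 and 8.76 in the tumours, with 9.23 and 9.37 in Gli1-FLAG GNPs, and with 9.70 and 9.55 in Ptc+/- GNPs. All 4 tumours lay below all GNP samples. It fell by 0.47 on the log2 scale (SE 0.13; adjusted p = 0.0360), and the call was lost without any of 7 arrays, medulloblastoma 3 being the exception, with adjusted p from 0.0524 (without medulloblastoma 4) to 0.131 (without Gli1-FLAG GNP 2). The log2 fold change was -0.63 against Ptc+/- GNPs and -0.31 against Gli1-FLAG GNPs.

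Promoters of all cilium genes in the set (RefSeq, GRCm38.p6, 250 bases before to 50 after each gene's start) were searched for an X-box. It was written as GTNNCC, a spacer of 1 to 3 bases and GGNNAC, which reads the same on both strands. Of the 53 symbols 47 had a promoter sequence, and 10 of them (21.3%) held a match, against 1082 of 27025 genes with such a sequence (4%). Among measured genes it was 7 of 37 in the set (18.9%), against 513 of 11521 on the array (4.45%). The 10 are 4 called genes (Ift57, Bbs4, Bbs7 and Nphp4), 3 measured genes that were not called (Tctn2, Tmem216 and Ahi1) and 3 that were not measured (Bbs1, Tctn1 and Mks1). Among genes that fell, 3 of 10 with a promoter sequence held a match, against 3 of 25 that were called in no comparison. The promoters of the 4 called genes are shown 5′ to 3′ in the gene's direction with the matches in capitals, since they are the called genes in which the motif was found. Ift57 (build GRCm38.p6, chr16:49699044-49699343, plus strand) holds 2 matches that do not overlap, Bbs7 lies at chr3:36613340-36613639, minus strand, Bbs4 at chr9:59353459-59353758, minus strand, and Nphp4 at chr4:152477892-152478191, plus strand.
Ift57: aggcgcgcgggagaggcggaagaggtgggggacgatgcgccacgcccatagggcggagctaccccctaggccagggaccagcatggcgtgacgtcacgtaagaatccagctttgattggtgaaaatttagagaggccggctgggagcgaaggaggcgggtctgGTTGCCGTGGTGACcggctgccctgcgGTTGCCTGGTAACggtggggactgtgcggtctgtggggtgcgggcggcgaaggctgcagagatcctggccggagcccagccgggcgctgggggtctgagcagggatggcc
Bbs7: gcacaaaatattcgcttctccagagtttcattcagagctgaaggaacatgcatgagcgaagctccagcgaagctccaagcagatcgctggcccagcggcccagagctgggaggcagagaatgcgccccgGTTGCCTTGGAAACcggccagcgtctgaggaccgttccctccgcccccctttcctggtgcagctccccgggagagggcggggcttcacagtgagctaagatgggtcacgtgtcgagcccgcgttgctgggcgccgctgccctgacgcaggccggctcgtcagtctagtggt
Bbs4: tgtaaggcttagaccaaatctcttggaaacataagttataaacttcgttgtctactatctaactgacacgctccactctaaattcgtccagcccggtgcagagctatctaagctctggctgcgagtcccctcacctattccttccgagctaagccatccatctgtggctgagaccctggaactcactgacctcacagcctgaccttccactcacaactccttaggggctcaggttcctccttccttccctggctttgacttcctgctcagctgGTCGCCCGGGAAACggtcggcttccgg
Nphp4: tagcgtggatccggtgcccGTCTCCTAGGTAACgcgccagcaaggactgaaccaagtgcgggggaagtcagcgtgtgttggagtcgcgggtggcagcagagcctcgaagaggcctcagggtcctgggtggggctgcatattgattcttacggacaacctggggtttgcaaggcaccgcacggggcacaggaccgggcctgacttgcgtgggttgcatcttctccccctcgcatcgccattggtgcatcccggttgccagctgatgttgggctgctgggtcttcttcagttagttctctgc
The matches of Ift57 begin 87 and 60 bases before the start, that of Bbs7 121 bases and that of Nphp4 231 bases before it, and that of Bbs4 23 bases after it. Ift57, Bbs4 and Bbs7 fell and Nphp4 rose, so called genes with the motif moved in both directions. The Gli motif GACCACCCA or its reverse complement was found in 0 of the 47 promoters, against 78 of 27025 genes (0.289%). Among measured genes it was 0 of 37, against 23 of 11521 on the array (0.2%). This motif is so rare that a set of this size cannot show a lack of it. A match is a run of letters and was not tested as a site, and the part of Rfx3 in these values was not tested.

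**Figure D2:**
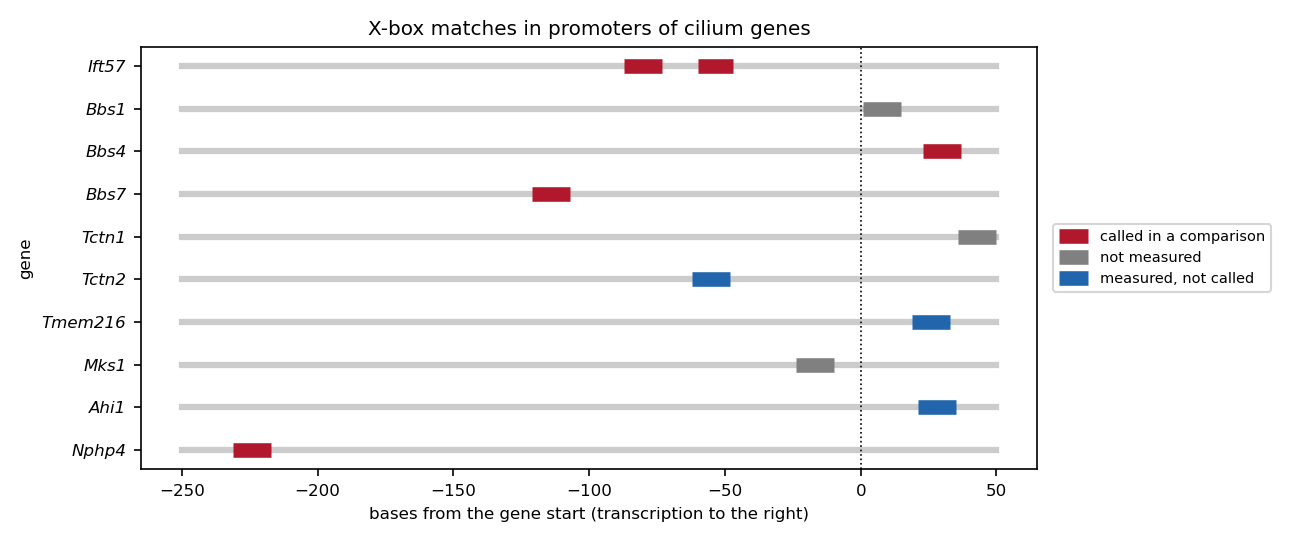
Grey bars are the promoters of the 10 cilium genes with an X-box match, drawn as distance in bases from the gene start, with transcription to the right. Boxes mark the 11 matches, coloured by whether the gene was called in a comparison, measured but not called, or not measured. Ift57 alone has 2.

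The IFT-B complex carries cargo from the base to the tip. Of its 10 genes in the set, all measured, 5 fell against both GNP groups (12.6% of all rows), 0 rose and 5 did not pass. Those that fell were Ift52, Ift57, Ift80, Ift81 and Ift88. The median log2 fold change of the 10 was -0.56. Against Ptc+/- GNPs alone 3 fell (8.92% of all rows), and against Gli1-FLAG GNPs alone 2 (5.63%). Ift88 encodes a core subunit without which mouse cells form no proper cilia. Its log2 intensity was 7.04, 6.72, 7.08 and 6.95 in the tumours, against 7.80 and 7.77 in Gli1-FLAG GNPs and against 7.76 and 7.89 in Ptc+/- GNPs. The tumour and GNP ranges were well apart, and the GNP groups overlapped each other. Ift88 fell by 0.86 (SE 0.13; adjusted p = 0.00499), a 1.81-fold difference.

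Ift81 encodes a subunit that binds tubulin together with Ift74. Its log2 intensities were 7.42, 7.21, 7.68 and 7.30 in the tumours, 8.08 and 8.16 in Gli1-FLAG GNPs, and at 8.16 and 8.29 in Ptc+/- GNPs, and it fell by 0.77 (SE 0.14; adjusted p = 0.00963). All 4 tumours lay below all GNP samples. Ift74, its partner, was at 8.07, 7.03, 7.44 and 7.42 in tumours, 8.24 and 8.05 in Gli1-FLAG GNPs, and at 8.10 and 8.25 in Ptc+/- GNPs. Medulloblastoma 1 reached the GNP range for Ift74 while the other tumours lay below it, and the difference of -0.67 (SE 0.22; adjusted p = 0.0652) did not pass.

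Ift80, a peripheral IFT-B subunit affected in a human skeletal ciliopathy, was at 8.07, 7.76, 7.86 and 7.87 in tumours, 8.17 and 8.31 in Gli1-FLAG GNPs, and at 8.81 and 8.51 in Ptc+/- GNPs. It stood lowest in tumours and highest in Ptc+/- GNPs, and it fell by 0.56 (SE 0.13; adjusted p = 0.0216). Ift52, another core subunit, was at 8.63, 8.13, 8.63 and 8.33 in tumours, 9.04 and 8.87 in Gli1-FLAG GNPs, and at 9.14 and 8.98 in Ptc+/- GNPs, and fell by 0.58 (SE 0.15; adjusted p = 0.0340). Ift57, a peripheral subunit whose promoter is shown above, was at 8.84, 8.59, 9.05 and 8.72 in tumours, 9.38 and 9.30 in Gli1-FLAG GNPs, and at 9.25 and 9.54 in Ptc+/- GNPs, and fell by 0.57 (SE 0.14; adjusted p = 0.0282). No tumour reached a GNP sample in any of these 3 genes. Each of these calls was lost on leaving out some arrays: Ift80 lost its call without Gli1-FLAG GNP 1 or 2 (0.0730 and 0.0906) or Ptc+/- GNP 1 (0.0814), Ift52 without any GNP array or medulloblastoma 2 or 4 (adjusted p from 0.0558 to 0.126), and Ift57 without any GNP array or medulloblastoma 1 or 2 (from 0.0533 to 0.108).

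The remaining IFT-B genes differed by -0.42 (Ift172, the largest subunit), -0.32 (Ift46), -0.30 (Ift20, also found at the Golgi) and -0.29 (Ift27, a small GTPase) without passing. All 10 point estimates were negative in each comparison with the tumours. Tumours lay below all GNP samples for 6 of the 10 (16.5% of all rows).

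The IFT-A complex, which drives the return trip, gave no calls among its 3 genes measured in the set. Ift140, a core subunit, was at 8.15, 7.77, 7.93 and 8.08 in tumours, 7.52 and 7.48 in Gli1-FLAG GNPs, and at 7.93 and 7.88 in Ptc+/- GNPs. Tumours overlapped Ptc+/- GNPs and lay above Gli1-FLAG GNPs. The difference was 0.28 (95% interval -0.02 to 0.57). Ift122 differed by 0.45 (0.03 to 0.86; adjusted p = 0.110) and Ift43 by -0.03 (-0.87 to 0.81). Wdr35 and Wdr19, further IFT-A genes outside the set, differed by -0.81 (adjusted p = 0.00620) and -0.37 (adjusted p = 0.329). Whether IFT-A and IFT-B genes changed differently was not tested.

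Of the motors, Kif3b, a subunit of the kinesin-2 that pulls trains outward, fell and 2 measured genes did not pass. Kif3b was at 8.34, 8.27, 8.52 and 8.41 in tumours, against 8.96 and 8.78 in Gli1-FLAG GNPs and against 8.86 and 8.82 in Ptc+/- GNPs. Tumours lay below all GNP samples, and the fall was 0.47 (SE 0.11; adjusted p = 0.0256). Its call was lost without any GNP array or medulloblastoma 1, with adjusted p from 0.0591 to 0.117. Kif3a, its partner in the same motor, differed by -0.10 (95% interval -0.41 to 0.22), and Dync2li1, a light intermediate chain of dynein-2, by 0.08 (-0.30 to 0.46).

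The BBSome genes split. Bbs2, Bbs4 and Bbs7, which encode subunits of the complex, fell, and 4 of the 7 measured genes of this group did not pass. Bbs2 was at 7.16, 7.16, 7.08 and 7.06 in the tumours, 8.0 and 8.03 in Gli1-FLAG GNPs, and at 8.23 and 8.19 in Ptc+/- GNPs. It had the smallest SD among tumours of the 43 genes (0.05) and the lowest p-value of them, with a 2.00-fold difference (log2 fold change -1.0, SE 0.10; adjusted p = 0.00170). Each of the 3 groups lay apart from the others.

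Bbs4 was at 7.02, 6.79, 7.15 and 6.45 in tumours, 7.77 and 7.66 in Gli1-FLAG GNPs, and at 7.49 and 7.61 in Ptc+/- GNPs, and fell by 0.78 (SE 0.17; adjusted p = 0.0182). Bbs7 was at 6.89, 6.90, 6.83 and 7.05 in tumours, 7.57 and 7.77 in Gli1-FLAG GNPs, and at 7.40 and 7.54 in Ptc+/- GNPs, and fell by 0.65 (SE 0.12; adjusted p = 0.00951). For both, tumours lay below all GNP samples, and Gli1-FLAG GNPs stood above Ptc+/- GNPs. Bbs4 lost its call without any 1 of the GNP arrays (adjusted p from 0.0551 to 0.0755) and Bbs7 without Gli1-FLAG GNP 2 (0.0507). Bbs5, another subunit, differed by -0.42 (95% interval -0.76 to -0.07; adjusted p = 0.0794). The subunit genes Bbs9 (0.28, -0.37 to 0.94) and Ttc8 (0.26, -0.04 to 0.55) and Bbs12 (0.13, -0.21 to 0.47), which encodes a chaperonin-like protein that helps assemble the complex, had intervals that include 0.

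**Figure D3:**
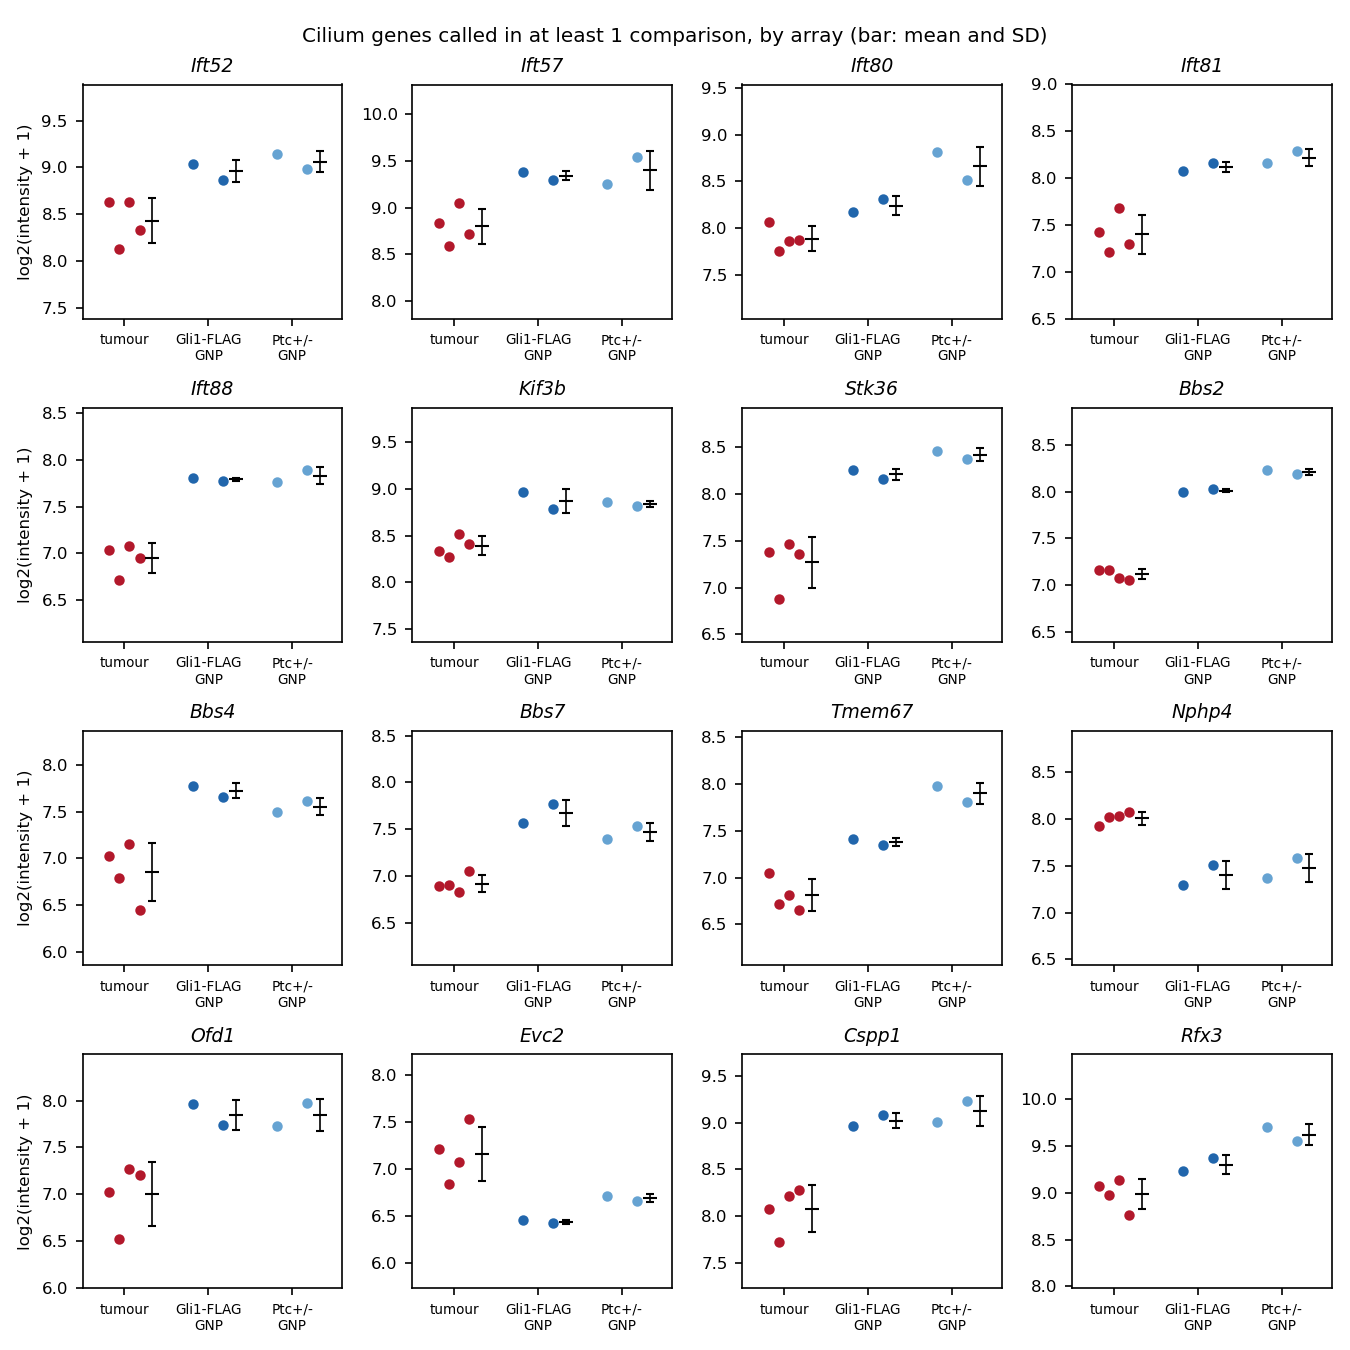
Log2(intensity + 1) of the 16 cilium genes called in at least 1 comparison, 1 panel a gene, with 1 point per array and the mean and SD of each group as bars. All panels span the same number of log2 units. Tumours lie below both GNP groups in 14 panels and above them in those of Nphp4 and Evc2.

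Among regulators of hedgehog signalling at the cilium, Stk36 fell, Evc2 rose and 2 of 4 measured genes did not pass. Stk36 encodes the mammalian homologue of Fused, a kinase of the hedgehog pathway in Drosophila, and in mice is known for its part in motile cilia. Its log2 intensities were 7.38, 6.88, 7.46 and 7.36 in tumours, 8.25 and 8.16 in Gli1-FLAG GNPs, and at 8.46 and 8.37 in Ptc+/- GNPs. Tumours were lowest and Ptc+/- GNPs highest, with medulloblastoma 2 at the bottom. The fall was 2.06-fold (log2 fold change -1.04, SE 0.16; adjusted p = 0.00562), the largest in size among the 43 genes, and the only one of the 16 calls that also passed a 2-fold minimum.

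Evc2 and Evc encode partner proteins that sit above the transition zone and bind Smo. Evc2 was at 7.21, 6.84, 7.07 and 7.53 in tumours, 6.45 and 6.42 in Gli1-FLAG GNPs, and at 6.71 and 6.66 in Ptc+/- GNPs, and rose by 0.60 (SE 0.16; adjusted p = 0.0362). Evc was at 7.70, 7.43, 7.32 and 7.95 in tumours, 7.27 and 7.07 in Gli1-FLAG GNPs, and at 7.29 and 7.26 in Ptc+/- GNPs. Tumours stood above all GNP samples for both, but Evc (0.38, SE 0.17; adjusted p = 0.140) did not pass. The call of Evc2 was lost without any 1 of the GNP arrays (adjusted p from 0.0988 to 0.113) or without medulloblastoma 1 (0.0807) or 3 (0.0501). Tulp3, which brings receptors into cilia with IFT-A, differed by 0.28 (95% interval -0.03 to 0.58).

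In the transition zone, Tmem67 fell, Nphp4 rose and 8 of 10 measured genes did not pass (median log2 fold change 0.01). Tmem67 encodes meckelin, a membrane protein of this gate. It was at 7.05, 6.72, 6.81 and 6.65 in tumours, 7.41 and 7.35 in Gli1-FLAG GNPs, and at 7.98 and 7.81 in Ptc+/- GNPs. The 3 groups did not overlap, and it fell by 0.83 (SE 0.13; adjusted p = 0.00633), and by 1.09 against Ptc+/- GNPs (adjusted p = 0.00868). Against Gli1-FLAG GNPs its log2 fold change of -0.58 did not pass (adjusted p = 0.0619). Nphp4, which encodes a nephrocystin of the transition zone, was at 7.92, 8.02, 8.03 and 8.08 in tumours, 7.30 and 7.51 in Gli1-FLAG GNPs, and at 7.37 and 7.58 in Ptc+/- GNPs. Every tumour stood above every GNP sample, and the rise was 0.57 (SE 0.12; adjusted p = 0.0146), lost without Gli1-FLAG GNP 1 (0.0761) or Ptc+/- GNP 1 (0.0608).

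The other transition zone genes lay on both sides of 0. Tctn2, of the tectonic family, had the lowest difference (-0.45, 95% interval -0.87 to -0.04; adjusted p = 0.101), followed by Tmem216 (-0.31), Rpgrip1l (-0.26) and Cep290 (-0.12), which encodes a scaffold of the gate. Ahi1 (0.14), Cc2d2a (0.19), B9d2 (0.22) and B9d1 (0.29), the last 2 encoding B9-domain proteins of 1 complex, were above 0. None of these 8 intervals excludes a difference of 0 except that of Tctn2.

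At the basal body Cspp1 and Ofd1 fell. Cspp1, which encodes a microtubule-associated protein of centrosomes and cilia, was at 8.08, 7.73, 8.22 and 8.28 in tumours, 8.96 and 9.08 in Gli1-FLAG GNPs, and at 9.01 and 9.23 in Ptc+/- GNPs. Ofd1, an X-linked gene for a protein of the distal centriole, was at 7.02, 6.52, 7.27 and 7.20 in tumours, 7.96 and 7.74 in Gli1-FLAG GNPs, and at 7.73 and 7.97 in Ptc+/- GNPs. Tumours lay below all GNP samples for both, and the GNP groups overlapped. Cspp1 fell by 0.99 (SE 0.16; adjusted p = 0.00644) and Ofd1 by 0.85 (SE 0.19; adjusted p = 0.0195), the call of Ofd1 being lost without any 1 of the GNP arrays (from 0.0519 to 0.0806). Ttbk2, the kinase that licenses cilium growth, differed by -0.09 (95% interval -0.42 to 0.23). For the membrane genes, Arl3, a GTPase that releases lipid-bound cargo, was at 10.87, 10.76, 10.50 and 10.99 in tumours, 10.61 and 10.58 in Gli1-FLAG GNPs, and at 10.32 and 10.51 in Ptc+/- GNPs, with overlapping groups (0.27, -0.06 to 0.61), and Inpp5e, a phosphoinositide phosphatase, differed by 0.02 (-0.32 to 0.35).

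**Figure D4:**
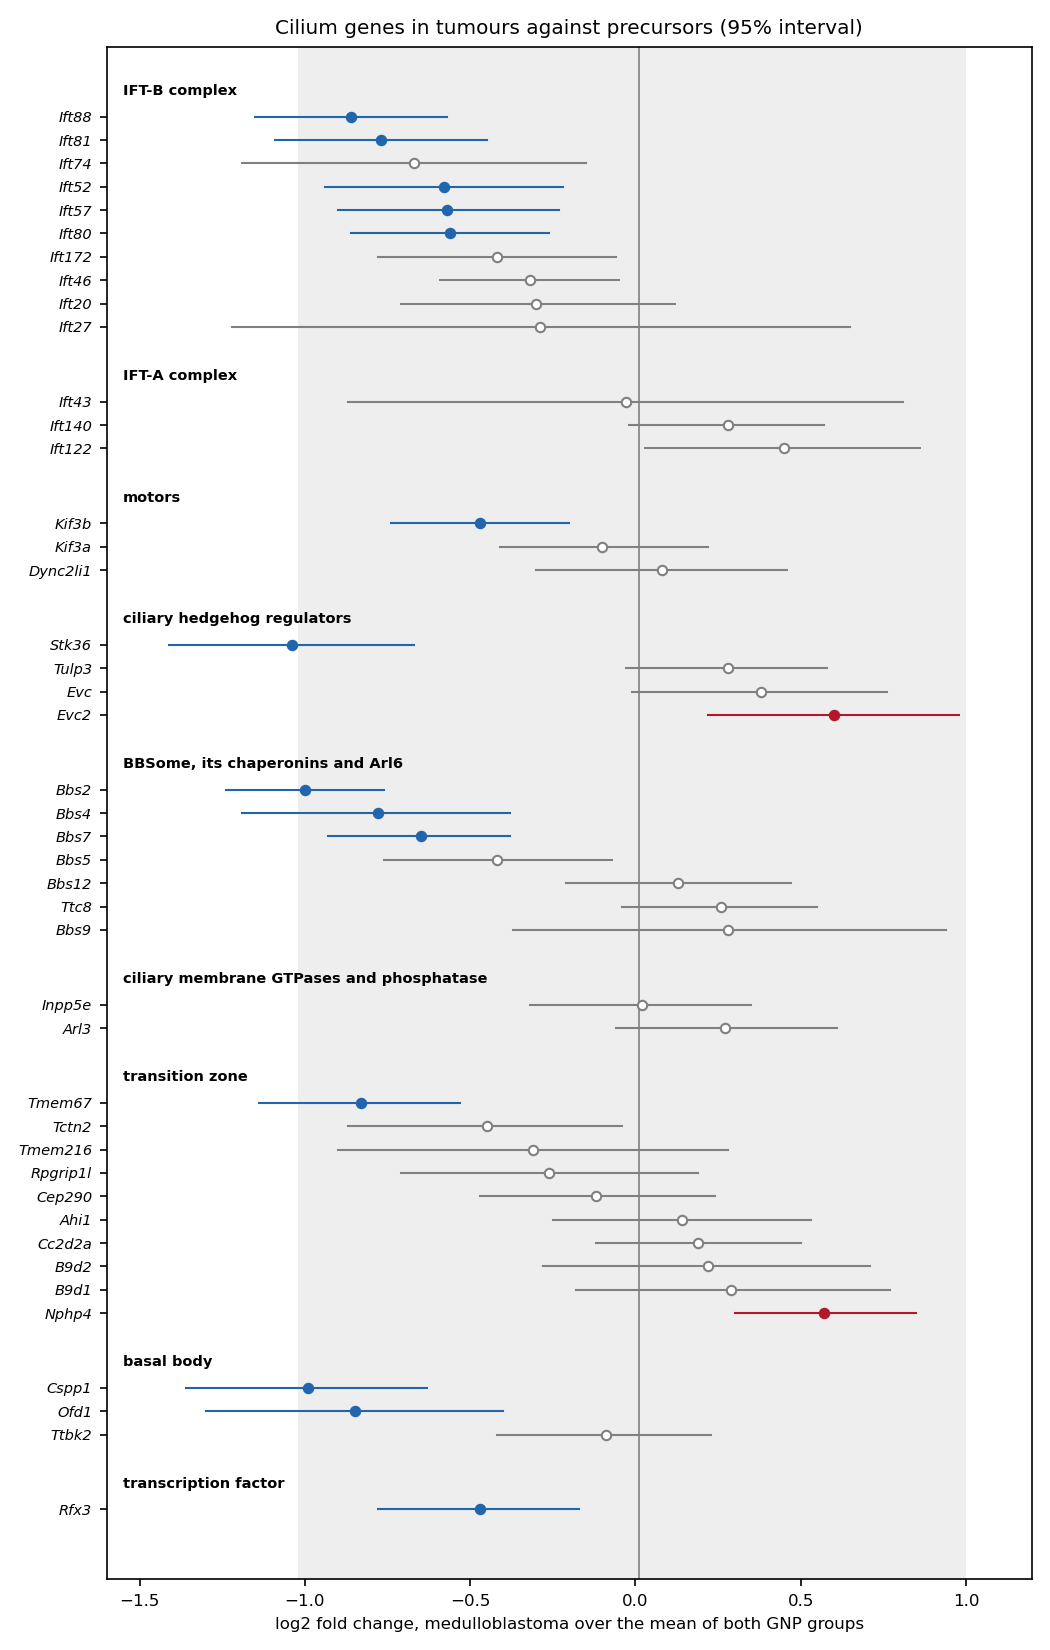
Log2 fold change, tumours over the mean of both GNP groups, with 95% intervals, for the 43 measured cilium genes by role. Filled points passed an adjusted p of 0.05 (blue lower, red higher), the shaded band holds the middle of all rows from -1.02 (5th percentile) to 1.00 (95th), and the line is their median. All 10 IFT-B points lie left of 0.

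No cilium gene was called between the GNP genotypes. In the comparison of Gli1-FLAG GNPs with Ptc+/- GNPs limma called 0 of 43 cilium genes and 0% of all rows, and at an unadjusted p under 0.05 3 cilium genes were lower (1.83% of all rows) and 0 higher (1.39%). These were Tmem67, with a log2 fold change of -0.51, Ift122 with -0.70 and Bbs12 with -0.50. Both Gli1-FLAG samples lay below both Ptc+/- samples for 21 of 43 genes (24.0% of all rows) and above them for 8 (22.3% of all rows). The median log2 fold change was -0.10, with 0 over all rows.

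The spread was widest among tumours. The median SD of the 43 genes was 0.243 in tumours, 0.0734 in Gli1-FLAG GNPs and 0.100 in Ptc+/- GNPs, against 0.299, 0.0899 and 0.140 over all rows. Medulloblastoma 2 was the lowest of the 4 tumours for 21 of 43 genes (29.5% of all rows) and medulloblastoma 1 for 4 (18.3%). Ift27 and Ift43 had the largest tumour SDs (0.84 and 0.74). Ift27 was at 7.90, 7.38, 7.56 and 9.24 in tumours, 8.50 and 8.56 in Gli1-FLAG GNPs, and at 7.82 and 8.34 in Ptc+/- GNPs. Medulloblastoma 4 alone lay above the GNP samples for it.

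Cilium genes outside the set were also more often lower in tumours. In a further list of 62 such genes, 50 were measured, and against both GNP groups 12 fell and 1 rose (12.6% and 10.7% of all rows), with a median of -0.28. Against Ptc+/- GNPs 10 fell and 0 rose (8.92% and 7.54% of all rows). The 4 with the lowest p there were Iqcb1, Wdr35, Ttc30b and Cep162, while Rfx4 (-1.84) and Mchr1 (-1.62), a ciliary receptor gene, had larger falls. Mchr1 was dim, under the 25th percentile of all rows on all tumour arrays. Iqcb1, whose protein binds Cep290, was at 7.36, 6.98, 7.29 and 6.88 in tumours, 8.39 and 8.17 in Gli1-FLAG GNPs, and at 8.37 and 8.34 in Ptc+/- GNPs, and fell by 1.19 against both GNP groups (SE 0.15; adjusted p = 0.00335). No tumour reached a GNP sample. Wdr35, an IFT-A subunit gene, was at 7.59, 7.35, 7.55 and 7.65 in tumours, 8.22 and 8.12 in Gli1-FLAG GNPs, and at 8.65 and 8.39 in Ptc+/- GNPs, and fell by 0.81 (SE 0.13; adjusted p = 0.00620). Ttc30b, an IFT-B subunit gene, was at 7.26, 7.28, 7.65 and 7.20 in tumours, 8.43 and 8.12 in Gli1-FLAG GNPs, and at 8.29 and 8.52 in Ptc+/- GNPs, and fell by 0.99 (SE 0.15; adjusted p = 0.00601). Tumours lay below all GNP samples for both. Cep162, a centriole gene, was at 7.67, 7.28, 7.81 and 7.79 in tumours, 8.27 and 8.18 in Gli1-FLAG GNPs, and at 8.71 and 8.62 in Ptc+/- GNPs, and fell by 0.81 (SE 0.15; adjusted p = 0.0106, but 0.0542 without Gli1-FLAG GNP 1).

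Of 13 measured hedgehog pathway genes 3 rose and 3 fell against both GNP groups (10.7% and 12.6% of all rows). Gli3, which encodes the main Gli repressor made at the cilium, fell by 3.25 (adjusted p = 0.00130), Smo, the signal transducer that enters the cilium, rose by 0.94 (adjusted p = 0.00392), Boc, a co-receptor gene, by 0.95 (adjusted p = 0.00768, but 0.0558 with medulloblastomas 1 and 2 left out), and Gli1 by 0.88 (adjusted p = 0.00658). The other falls were Csnk1a1 and Gsk3b, genes for kinases that phosphorylate Gli proteins, each by 0.47 (adjusted p = 0.0198 and 0.0433). They were named after their values were seen. Gli3 was at 5.09, 5.54, 4.25 and 4.29 in tumours, 8.08 and 8.12 in Gli1-FLAG GNPs, and at 7.90 and 8.07 in Ptc+/- GNPs, well below every GNP sample. Smo was at 10.50, 10.50, 10.57 and 10.28 in tumours, 9.40 and 9.23 in Gli1-FLAG GNPs, and at 9.85 and 9.60 in Ptc+/- GNPs, and every tumour stood above every GNP sample.

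The labels describe isolation of GNPs from the cerebellum but no purification of tumour cells. Markers of other cells differed beside the cilium genes. Their counts are against both GNP groups unless another is named, where 12.6% of all rows fell and 10.7% rose. Of 18 measured markers of ependymal and other motile-ciliated cells 5 fell and 0 rose against both GNP groups. Against Ptc+/- GNPs alone 4 fell (8.92% of all rows), and against Gli1-FLAG GNPs alone 0 (5.63%). Summed intensity was 608 to 705 in tumours, 706 to 714 in Gli1-FLAG GNPs and 709 to 824 in Ptc+/- GNPs. These markers were dim: 9 of the 18 lay under the 25th percentile on all tumour arrays and 10 on all arrays of each GNP group, Dnah5, Spag17 and Hydin among them. Endothelial and mural markers fell in 5 of 8 (1001 to 1141 in tumours, 2788 to 2859 in Gli1-FLAG GNPs and 1779 to 4740 in Ptc+/- GNPs). Astrocyte and Bergmann glia markers fell in 2 of 7 (273 to 3621, 4434 to 4787 and 2640 to 4031 in the same groups). The 4 tumours were at 1874, 2843, 273 and 3621 for these, and medulloblastomas 2 and 4 lay within the Ptc+/- GNP range. Microglial markers rose in 6 of 9 (3446 to 8118, 1772 to 2024 and 1593 to 1884), and oligodendrocyte lineage markers rose in 4 of 7 (2376 to 4626, 2492 to 2596 and 1688 to 1721). The 4 are progenitor markers (Olig1, Olig2, Pdgfra and Cspg4), and the myelin genes Mbp (-0.92), Mog (-1.51) and Mag (-2.41) did not pass.

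Of 10 markers of granule neuron precursors 4 rose and 3 fell against both GNP groups (10.7% and 12.6% of all rows). The 4 include Gli1, which is engineered here and is also counted among the hedgehog pathway genes. Of 8 measured for postmitotic granule neurons 0 rose and 1 fell (median 1.05). Of 8 for Purkinje cells and interneurons 1 rose and 1 fell (median 0.78). No GNP marker lay under the 25th percentile on all arrays of a group. Cells take down their cilia to divide. Of 8 measured proliferation genes 1 rose (Mcm2) and 1 fell (Top2a), both named after their values were seen, with a median of 0.01 and summed intensity of 9141 to 13100 in tumours, 10760 to 10808 in Gli1-FLAG GNPs and 11934 to 12359 in Ptc+/- GNPs. The part of these cell types in the values of the cilium genes was not tested.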

How the data were processed

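The values analysed are the authors' deposited intensities, 1 linear value per transcript cluster for 16317 rows on 8 arrays. The genome build mm8 is named in the submitters' processing notes. The sources used here do not state background correction, probe summary or scaling. Array medians ran from 109 to 310.0, so values were quantile normalized with the 1 value under 0 first raised to 0, and tests used log2(intensity + 1). Folds of dim rows are thereby understated. No detection p-value was used. Precision is limited by how few arrays there are. Rows were named through the platform annotation, 14551 with 1 symbol, 1146 with several and 620 with none. Limma 3.58.1 in R 4.3.3 fitted 3 group means to all 8 arrays (lmFit, eBayes, 2.45 prior and 5 residual degrees of freedom), two-sided, Benjamini-Hochberg adjusted over all rows, with SEs moderated. The fit was tested on simulated data drawn with the same SD per row in all groups. That test cannot show how the fit behaves with the wider spread among tumours. Members, lists and the fit were chosen with earlier results of these data known. Per-array values are given for called members and for the member of each role group with the lowest p against Ptc+/- GNPs, and for up to 4 genes of each further list called there. Promoters came from RefSeq GRCm38.p6. Alternatives covered arrays in the fit, the replicate block, normalization, filters, eBayes, weights, rows, offset, a 2-fold minimum and each array left out, and, added after seeing the data, medulloblastomas 1 and 2 left out.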

Additional observations from a re-analysis of the deposited data

Results flagged for a closer look

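Ttc30b in medulloblastoma 3 stood apart from the other tumours, at a log2 intensity of 7.65 against 7.20 to 7.28. Its gap was 0.833 of the group's range, where 0.829 is the 95% limit for 4 samples. Chance gives such a gap in about 1 of 20 groups, and 52 genes were examined.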

How the results depend on the processing

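Fold changes of called cilium genes changed sign under 0 of the alternatives. Against Ptc+/- GNPs 11 cilium genes were called, but 5 with only the arrays of those groups, 6 with the replicate block, 4 with a 2-fold minimum, and 0 to 13 on leaving out 1 array. Against Gli1-FLAG GNPs 8 were called, but 2 with only those arrays, 3 with the replicate block, 13 without dim rows, 16 with array weights per group, 13 with an offset of 16, 0 with a 2-fold minimum (limma; 5 higher and 13 lower passed an unadjusted p of 0.05), and 0 to 8 on leaving out 1 array. Between the GNP groups 0 were called under every alternative run. Against both GNP groups 16 were called, 1 with a 2-fold minimum and 7 to 17 on leaving out 1 array, and the replicate block gave 11. With medulloblastomas 1 and 2 left out, chosen after seeing the data, 5, 1, 0 and 6 were called in these comparisons. Other alternatives kept each count within 1.5 times. The share of all rows called moved with the counts. Against Ptc+/- GNPs it was 16.5% in the main fit, 7.34% with only those arrays, 12.4% with the block and 7.67% with a 2-fold minimum. Against Gli1-FLAG GNPs it was 10.3%, and 4.97%, 6.53% and 5.41% in the same order. There it was 16.7% without dim rows, 21.9% with array weights and 12.9% with an offset of 16. Against both groups it was 23.4%, 18% with the block and 7.56% with a 2-fold minimum. With arrays centred on their medians the median of all rows moved to 0.13 against Ptc+/- GNPs, where that of the cilium genes was -0.30, and the split of calls was 0 rises and 10 falls. Replicate numbers did not pair the samples (correlations of deviations from -0.07 to 0.01), and the block drops medulloblastomas 3 and 4. The cause of these shifts was not tested. Signal over background is not known, so dim markers have uncertain levels.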

Other observations

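Ift27 and Ift43, which encode subunits of different transport complexes, had similar values across the tumours. Ift43 measured 8.31, 7.49, 7.85 and 9.21 in tumours, 8.38 and 8.55 in the Gli1-FLAG GNP samples, and 7.81 and 8.24 in Ptc+/- GNPs. Both were highest in medulloblastoma 4 and lowest in medulloblastoma 2, and both were lowest of the GNP samples in Ptc+/- GNP 1. They were singled out after their values were seen.

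Rfx4, an RFX factor gene of neural tissue, measured 6.27, 6.75, 5.37 and 5.36 in tumours, 7.75 and 7.60 in the Gli1-FLAG GNP samples, and 7.97 and 7.59 in Ptc+/- GNPs. It fell by 1.79 against both GNP groups (limma, adjusted p = 0.0107), while Rfx2 did not pass in the same comparison (-0.15, adjusted p = 0.527). Both were likewise picked after their values were seen. Wdr34, which encodes a dynein-2 chain, was the 1 gene of the further list that rose (0.53, adjusted p = 0.0332).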
